A study of Mus musculus with 14 samples.

Results

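Matrix metalloproteinases and their tissue inhibitors were examined in transplanted mouse hearts as a set of 10 genes, namely the proteases Mmp2, Mmp3, Mmp8, Mmp9, Mmp12, Mmp13 and Mmp14 and the inhibitors Timp1, Timp2 and Timp3, out of 8251 genes with a probe set of their own on the MG-U74Av2 oligonucleotide array. The probe sets of the members were found by the array's gene annotation and not by their signal, and 16 belong to them. The members themselves were chosen with earlier results of these data known. Each of the 14 arrays measured RNA of 1 transplanted heart. The groups were 3 rejecting allografts at day 7 (Balb/c to C57/BL6), 3 tolerizing allografts at day 7 (Balb/c to C57/BL6, given an anti CD80/86 mAb), 3 isografts at day 7 (C57/BL6 to C57/BL6), 3 tolerizing allografts at day 70 (the same strains and mAb) and 2 isografts at day 70. All of them are grafts, so no group gives the level of an untransplanted heart, and the rejecting hearts lack both the mAb and a later time. The labels do not give the age or sex of the mice, the dose of the mAb, or whether hearts came from separate operations, so a p-value measures the spread between these arrays only.

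Matrix metalloproteinases are zinc enzymes that cut collagen, elastin, laminin and other matrix proteins, and most are secreted as inactive precursors that another protease must open. Tissue inhibitors of metalloproteinases (TIMPs) block them by binding the active site. In an injured heart the enzymes come from infiltrating neutrophils and macrophages as well as from fibroblasts, and the balance between enzymes and inhibitors is known to shape how the matrix is remodelled. Many metalloproteinase genes respond to inflammatory cytokines through AP-1, a dimer of Fos and Jun proteins that binds the promoter near the start site.

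The promoters of 3 protease genes are shown because they share that element. That of Timp2 is shown because only this inhibitor passed the threshold in the main fit of all 5 groups described below. Each line is the 150 bases before the annotated start site in RefSeq on build GRCm38.p6, read along the gene's strand. Capitals mark matches to the AP-1 element TGANTCA and to the TATA box TATAAA.
Mmp13, chr9:7272364-7272513, plus strand: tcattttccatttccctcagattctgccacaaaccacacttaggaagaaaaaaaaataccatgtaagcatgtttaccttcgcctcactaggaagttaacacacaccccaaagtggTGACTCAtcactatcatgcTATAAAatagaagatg
Mmp12, second of 2 starts, chr9:7347224-7347373, plus strand: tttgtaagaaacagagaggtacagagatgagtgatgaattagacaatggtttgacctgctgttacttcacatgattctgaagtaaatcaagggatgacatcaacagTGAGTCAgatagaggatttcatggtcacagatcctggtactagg
Mmp3, chr9:7445672-7445821, plus strand: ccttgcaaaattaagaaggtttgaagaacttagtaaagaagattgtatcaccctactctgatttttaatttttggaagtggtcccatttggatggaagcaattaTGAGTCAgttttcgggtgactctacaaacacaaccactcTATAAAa
Timp2, chr11:118355412-118355561, minus strand: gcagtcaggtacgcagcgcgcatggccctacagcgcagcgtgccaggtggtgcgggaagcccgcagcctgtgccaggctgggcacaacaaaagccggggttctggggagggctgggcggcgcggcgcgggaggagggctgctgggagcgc

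The AP-1 element began 35 bases before the start of Mmp13, 44 bases before the second start of Mmp12 and 46 bases before that of Mmp3. Searched on both strands over 250 bases, it was present in 3 of the 8 members with an entry and in 6.75% of 32851 promoters. For this and the next elements, members were counted by gene, with a match at any start. The share of all promoters was counted by promoter, so the 2 are not in the same unit. The TATA box was present in 2 of those 8 members, 16 bases before the start of Mmp13 and 7 before that of Mmp3, and in 12.4% of all promoters. The ETS element AGGAAG was present in 7 of 8 members, Timp2 being the exception, and in 29.5% of all promoters. The runt element ACCACA stood in Mmp13 and Mmp14, which is 2 of 8 members, and in 14% of all promoters. Mmp2 and Mmp9 were not searched. A match is a stretch of letters and not a measured binding site. Mmp13, Mmp12, Mmp3 and Mmp8 are neighbours on chromosome 9, within a cluster that also holds Mmp1b, Mmp1a and Mmp10.

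The arrays had been brought to a common scale, with a trimmed mean signal of 100.06 to 100.07 on each. H2-Ea, a class II gene that Balb/c mice transcribe and C57/BL6 mice do not, had 48.1 to 552 units in the allografts and 2.5 to 12.3 in the isografts, which fits the labelled strains. Rejecting arrays 1 to 3 had 48.1, 50.4 and 217.3 units of H2-Ea, and the tolerizing hearts of both days 408.5 to 552 units. Signals below 11 units, the 25th percentile of the whole table, were set to that floor, and a probe set was tested if it exceeded the floor on at least 3 arrays. Of the 10 members, 8 were tested, each through its brightest probe set. Mmp8 and Mmp9 exceeded the floor on 1 and 2 arrays and are given as values only. The arrays carry the labels' numbers 1 to 3, and rejecting array 3 stands apart from rejecting arrays 1 and 2 for several members below. Results that rest on it are given with and without it. That array was singled out by the values of these members. An adjusted p without it is therefore a description and no added support for a difference. The arrays were registered in 2 runs of accession numbers. The first run holds the arrays numbered 3 and isograft array 2 of day 70, and the labels do not call these runs a batch. Differences within the first run therefore set 1 array against 1. Those of day 7 within the second run set 2 against 2. Rejecting array 3 is the only rejecting array of its run, so within the rejecting group the array and its run cannot be told apart.

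**Figure D1:**
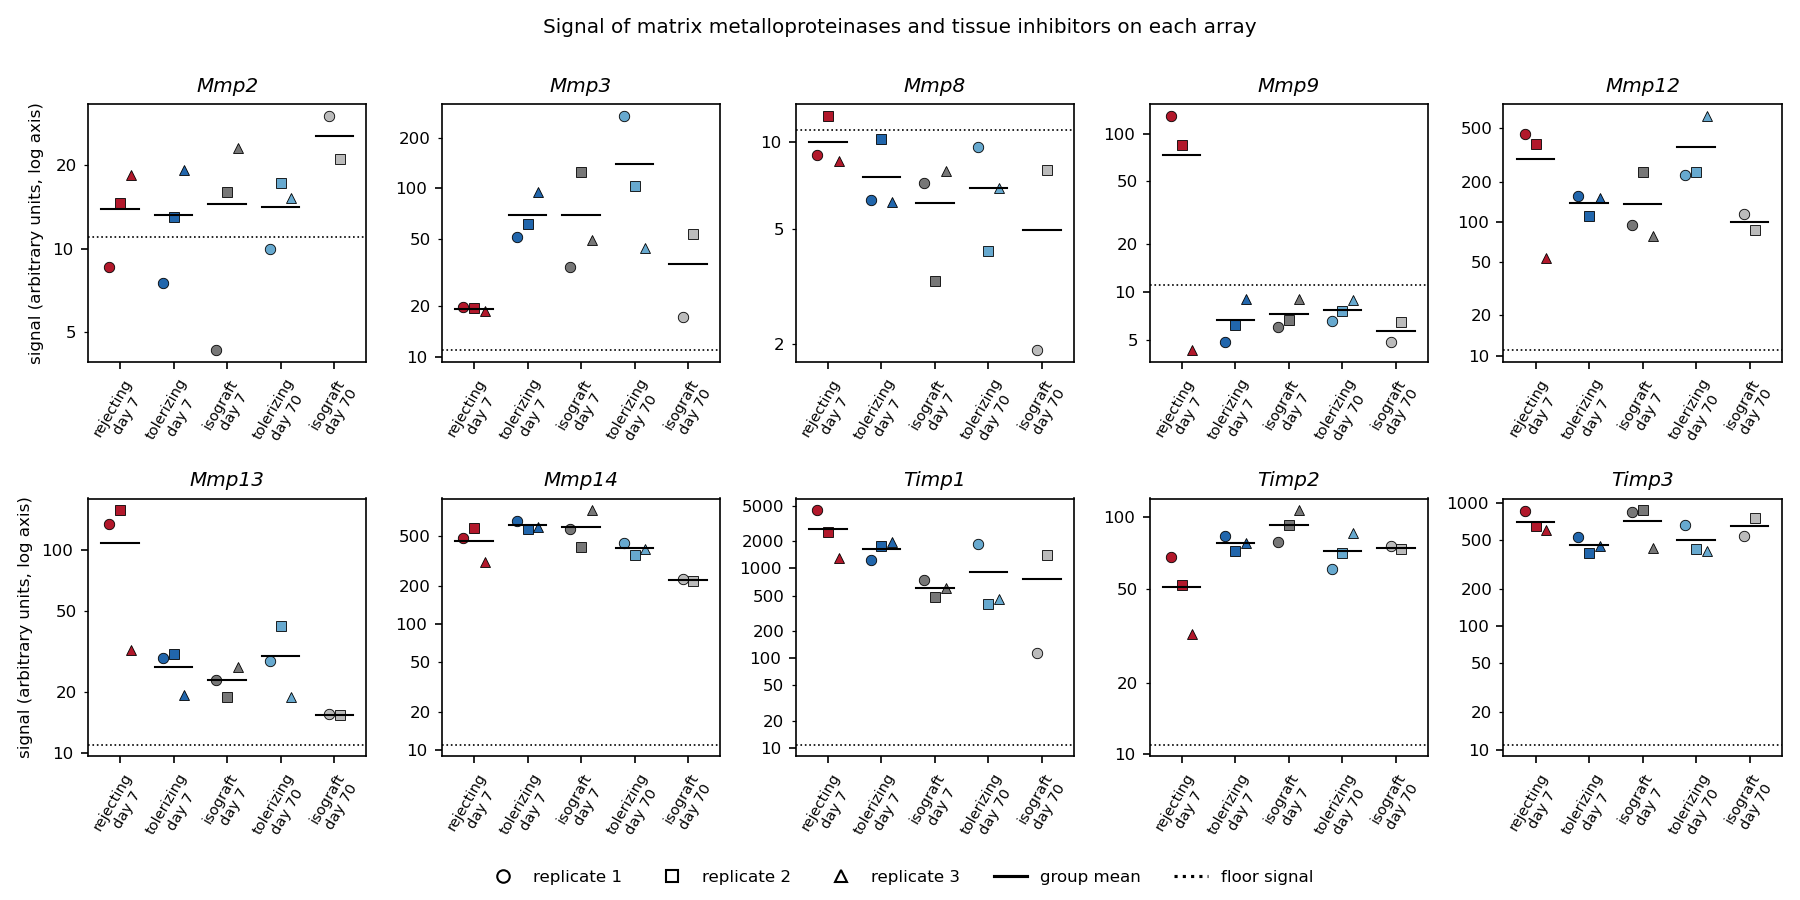
Signal of each member's brightest probe set on every array (arbitrary units, log axis; each panel has its own scale), with groups along the horizontal axis. Symbols give the replicate number, bars the group mean and the dotted line the floor of 11 units. Mmp9, Mmp12 and Mmp13 are high on rejecting arrays 1 and 2 and much lower on rejecting array 3, and Timp2 is lowest in the rejecting group.

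In rejecting allografts at day 7, 2 of the 8 tested members differed from isografts of the same day. Mmp13 was 3.9-fold higher and Timp2 1.9-fold lower. Over all 10395 probe sets tested, 17.7% passed the same threshold in this comparison, 8.54% upward and 9.18% downward, so 2 of 8 is near the background and says nothing particular about the family. The median log2 difference was -0.06 over the 8 members and 0.04 over all probe sets.

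Mmp13 is collagenase 3, the main interstitial collagenase of rodents, which cuts fibrillar collagens. It had 135.2, 157.2 and 32.1 units in rejecting hearts, against 23.0, 18.8 and 26.5 units in isografts at day 7. All 3 rejecting hearts lay above all isografts, but the third by only a few units. The group means were 108.17 ± 66.79 in rejecting hearts and 22.77 ± 3.86 in isografts (SD, n = 3 each). The log2 difference was 1.97 (SE 0.51, 95% interval 0.87 to 3.06, limma adjusted p = 0.01594). Within the accession run of rejecting array 3 it was 0.28, and within the other run 2.81. The adjusted p for Mmp13 without rejecting array 3 was 0.0003011, at a log2 difference of 2.69. The call was lost without rejecting array 1 (adjusted p = 0.06893), rejecting array 2 (0.07591) or isograft array 2 (0.05971), and when the groups compared were fitted alone (0.1017).

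Timp2 inhibits many metalloproteinases and, bound to Mmp14, is also part of the complex that activates the Mmp2 precursor. Its brightest probe set had 68.2, 51.6 and 32.3 units in rejecting hearts, against 78.7, 92.4 and 106.9 units in isografts. The rejecting hearts were all lower, and rejecting array 3 was the lowest of all 14 arrays. Timp2 fell by 0.92 on the log2 scale (SE 0.27, 95% interval -1.5 to -0.35, limma adjusted p = 0.02873). The Timp2 call was lost without rejecting array 2 (adjusted p = 0.0608), rejecting array 3 (0.07287), isograft array 2 (0.07569) or isograft array 3 (0.09798). It was also lost in the second accession run alone, where the log2 difference was -0.52 (adjusted p = 0.1935) against -1.73 in the first run, with the 3′ to 5′ signal ratio of beta-actin as a covariate (0.09164) and with the groups fitted alone (0.1388). Of the other probe sets for Timp2, 1 was at or below the floor in both groups and 1 was not tested.

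The other 6 tested members did not pass the threshold, although 2 of them separated the groups. Timp1, the inducible and secreted inhibitor, had 4443.0, 2530.0 and 1319.4 units in rejecting hearts, against 736.1, 482.6 and 609.5 units in isografts. Every rejecting heart was above every isograft, with a log2 difference of 2.03 (SE 0.77, adjusted p = 0.08817), and 2.48 without rejecting array 3 (adjusted p = 0.05508). With the groups fitted alone Timp1 passed the threshold (adjusted p = 0.03626). Mmp3, stromelysin 1, which cuts proteoglycans and laminin and opens other precursors, had 19.8, 19.5 and 18.7 units in rejecting hearts, against 34.1, 125.4 and 49.4 units in isografts. The rejecting hearts were closely alike and all lower, with a log2 difference of -1.62 (SE 0.62, adjusted p = 0.09388). Within the first and second accession run the differences were 1.11 and 2.49 for Timp1 and -1.4 and -1.73 for Mmp3. Groups that do not overlap were thus found for 4 of 8 members (2 higher, 2 lower) and for 30.0% of all probe sets.

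Mmp12, the macrophage elastase, had 456.8, 381.2 and 53.4 units in rejecting hearts at its brighter probe set, against 95.1, 234.2 and 78.3 units in isografts. Its other probe set had 236.3, 275.4 and 21.8 units in rejecting hearts, against 31.9, 39.7 and 42.1 units in isografts. Both probe sets were high on rejecting arrays 1 and 2 and lower on rejecting array 3 than on any isograft of that day. With all arrays the log2 differences of Mmp12 were 0.8 and 1.58 (limma adjusted p = 0.4869 and 0.193). Without rejecting array 3 they were 1.79 and 2.76 (adjusted p = 0.01789 and 0.001656). Because that array was set apart by its low Mmp12 values, among others, smaller adjusted p-values without it were built in. Within the first accession run they were -0.55 and -0.95, and within the second 1.48 and 2.84.

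Mmp9, gelatinase B, which neutrophils store in granules and macrophages secrete, had 130.0, 84.6 and 4.3 units in rejecting hearts, against 6.0, 6.7 and 9.0 units in isografts. It was above the floor on rejecting arrays 1 and 2 and on no other array. Mmp8, the neutrophil collagenase, had 9.0, 12.3 and 8.6 units in rejecting hearts and 7.2, 3.3 and 7.9 units in isografts, at or near the floor throughout.

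Mmp14 is a membrane-anchored collagenase that activates the precursor of Mmp2. It had 482.0, 582.9 and 307.6 units in rejecting hearts, against 566.7, 408.2 and 800.4 units in isografts. The groups overlapped (log2 difference -0.37, SE 0.25, adjusted p = 0.3802). Mmp2, gelatinase A, had 8.6, 14.6 and 18.5 units in rejecting hearts and 4.3, 16 and 23.0 units in isografts (log2 difference -0.15, SE 0.32, adjusted p = 0.8219). Both ranges lie around the floor, so this array bears little on Mmp2. Timp3, the inhibitor that stays bound to the matrix, had 858.6, 642.1 and 603.0 units in rejecting hearts, against 839.7, 866.6 and 430.5 units in isografts (log2 difference 0.03, SE 0.28, 95% interval -0.58 to 0.64).

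**Figure D2:**
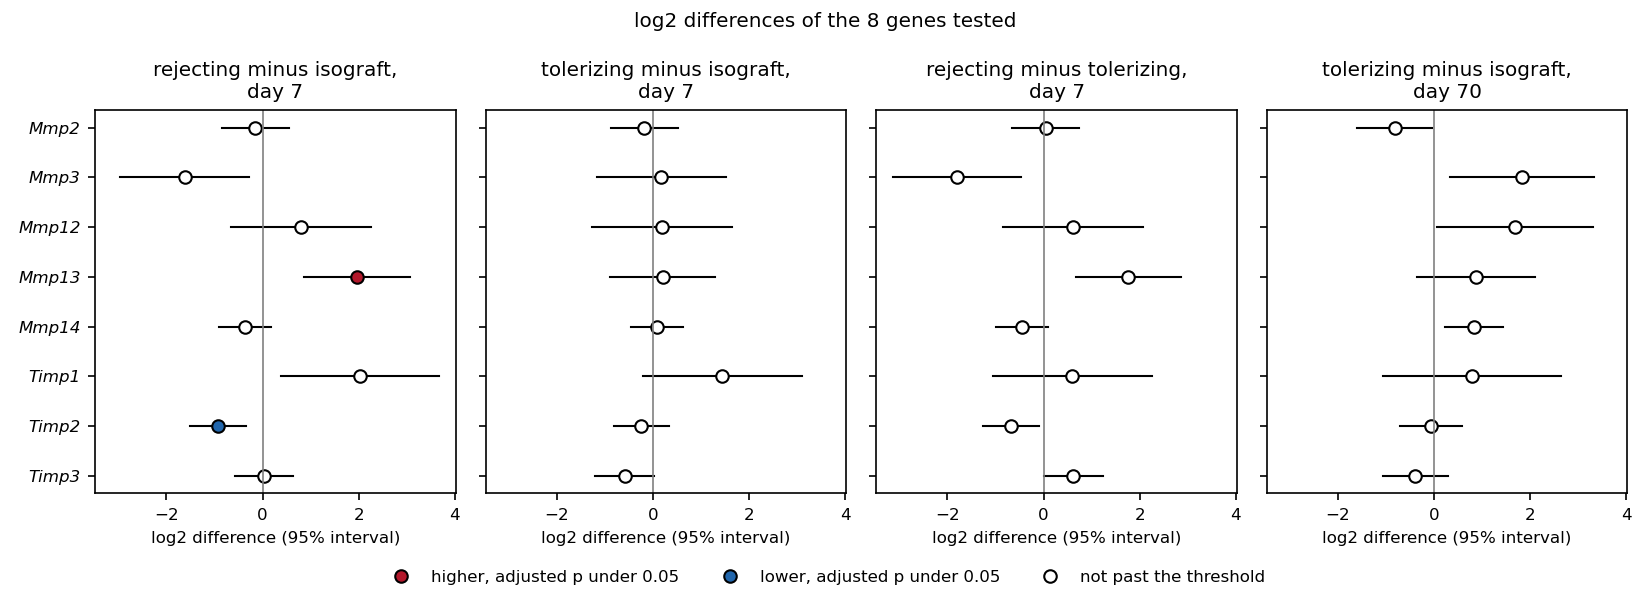
Log2 differences (horizontal axis) of the 8 tested members in 4 comparisons, with 95% intervals from limma; filled points passed an adjusted p of 0.05. Mmp13 and Timp2 in rejecting hearts against isografts are the filled points, and the intervals of Mmp12 and Timp1 are the widest.

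Summed signals of cell type markers are given beside these values. The summed signal of 11 neutrophil markers was 3726.1, 1645.7 and 973.8 units in rejecting hearts, against 510.6 to 837.2 units in isografts at day 7. That of 12 macrophage markers was 12334.9, 11938.4 and 10226.6 units in rejecting hearts and 3789.8 to 4525.2 units in isografts. A sum follows the brightest genes of its list. By limma, 2 of the 11 neutrophil markers were called higher and none lower. Of the 12 macrophage markers, 10 were called higher and 1 lower. The shares over all probe sets were 8.54% higher and 9.18% lower. Fibroblast markers (12 genes) summed to 12246.6, 8626.2 and 4179.8 units in rejecting hearts, against 10046.9 to 15395.7 units in isografts, and 10 cardiomyocyte markers to 4805.1, 7197.4 and 22040.0 units, against 36829.8 to 53263.0 units. The 9 T cell markers summed to 679.7, 1144.6 and 2222.7 units in rejecting hearts, against 68.8 to 313.4 units in isografts, in which Cd2 and Cd5 were at the floor on all arrays. The 9 endothelial markers summed to 1104.6, 1267.2 and 1157.3 units in rejecting hearts, against 1844.6 to 2642.1 units in isografts. The 8 smooth muscle and pericyte markers summed to 3361.0, 2178.1 and 928.8 units in rejecting hearts, against 1132.1 to 1968.2 units in isografts. By limma, 10 of 10 cardiomyocyte, 5 of 9 endothelial and 3 of 8 smooth muscle markers were called lower and none higher. Of the 9 T cell markers, 7 were called higher and none lower. Rejecting array 3 thus had the least neutrophil, macrophage, fibroblast and smooth muscle signal of its group. It had the most cardiomyocyte and T cell signal. No marker of the neutrophil, macrophage, fibroblast and cardiomyocyte lists was at the floor on every array of either group. The part of cell makeup in the differences of Mmp9, Mmp12, Mmp13 and Timp2 was not tested. In whole tissue, fewer cells of a type and less RNA per cell cannot be told apart. The beta-actin 3′ to 5′ ratio, a sign of RNA quality, was 1.26 to 1.61 in rejecting hearts, 1.09 to 1.37 in tolerizing hearts and 1.52 to 1.98 in isografts at day 7.

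The comparison of rejecting with tolerizing allografts at day 7, which share the donor and recipient strains and differ by the mAb, called none of the 8 tested members by limma. At an unadjusted p under 0.05 there were 4, and 1.41% of all probe sets were called (15.1% at the unadjusted threshold). Mmp13 had 135.2, 157.2 and 32.1 units in rejecting hearts, against 29.5, 30.6 and 19.3 units in tolerizing hearts. The ranges did not overlap, though rejecting array 3 exceeded the highest tolerizing array by little (log2 difference 1.76, SE 0.51, adjusted p = 0.1067). The adjusted p for Mmp13 without rejecting array 3 was 0.001441, at a log2 difference of 2.49. That fit leaves out an array chosen by its low Mmp13 value, among others, and adds no support.

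Mmp3 had 19.8, 19.5 and 18.7 units in rejecting hearts, against 51.4, 61.8 and 95.5 units in tolerizing hearts, with no overlap (log2 difference -1.8, SE 0.62, adjusted p = 0.1766). Timp3 had 858.6, 642.1 and 603.0 units in rejecting hearts, against 527.4, 390.5 and 447.5 units in tolerizing hearts, again with no overlap (log2 difference 0.62, SE 0.28, adjusted p = 0.3268). Timp2 was lower in every rejecting heart, with 68.2, 51.6 and 32.3 units in rejecting hearts, against 83.2, 72.1 and 77.7 units in tolerizing hearts (log2 difference -0.68, SE 0.27, adjusted p = 0.2435). Groups did not overlap for these 4 of 8 members (2 higher, 2 lower) and for 16% of all probe sets.

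The dimmer probe set of Mmp12 had 236.3, 275.4 and 21.8 units in rejecting hearts, against 36.4, 20.9 and 43.8 units in tolerizing hearts, and the ranges overlapped through rejecting array 3. Its log2 difference was 1.8 (SE 0.77, adjusted p = 0.2813), and without that array 2.99 (adjusted p = 0.002955). The brighter probe set of Mmp12 had a log2 difference of 0.61 (SE 0.68, adjusted p = 0.7482), and without rejecting array 3 of 1.6 (adjusted p = 0.06133). For both probe sets the array left out was chosen by its low values. Mmp9 stayed under the floor in tolerizing hearts, at 4.8, 6.2 and 9.0 units. Timp1 overlapped between rejecting and tolerizing hearts (log2 difference 0.59, SE 0.77, 95% interval -1.06 to 2.25), an interval that leaves room for a difference in either direction.

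Tolerizing allografts were set against isografts at day 7, a comparison of allografts under the mAb with grafts that carry no foreign tissue. None of the 8 members was called by limma, none had an unadjusted p under 0.05, and 1.69% of all probe sets were called (13% at the unadjusted threshold). Timp1 had 1229.4, 1762.8 and 1987.3 units in tolerizing hearts, against 736.1, 482.6 and 609.5 units in isografts. All tolerizing hearts were higher (log2 difference 1.44, SE 0.77, 95% interval -0.21 to 3.09, adjusted p = 0.4812). It was the only member whose groups did not overlap, against 20.4% of all probe sets. Timp3 had 527.4, 390.5 and 447.5 units in tolerizing hearts, against 839.7, 866.6 and 430.5 units in isografts (log2 difference -0.59, SE 0.28, adjusted p = 0.4118). The remaining 6 members had log2 differences of -0.25 to 0.2. The comparisons of rejecting and of tolerizing hearts with isografts share the same isograft arrays.

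**Figure D3:**
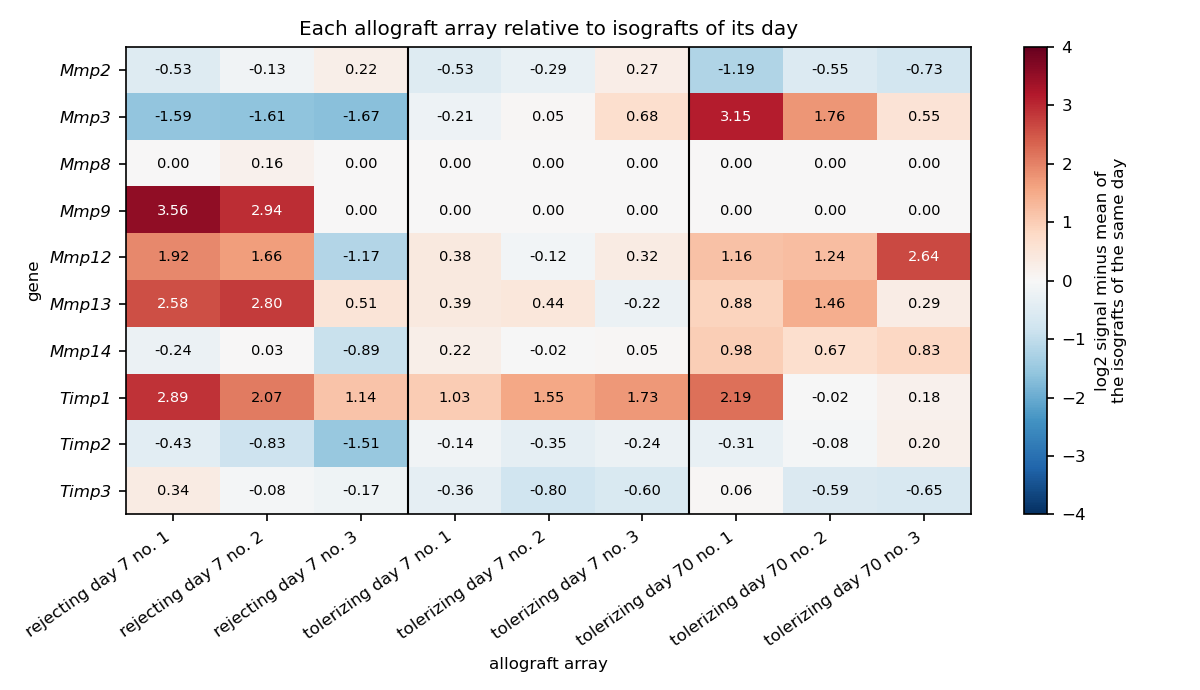
Log2 signal of each allograft array (columns) minus the mean log2 signal of the isografts of the same day, for each member (rows), with values below the floor set to it, so those of Mmp9 are distances from the floor. The first 2 rejecting arrays carry 2.58 and 2.80 for Mmp13 and 3.56 and 2.94 for Mmp9, and the third carries 0.51 and 0.

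At day 70, tolerizing allografts were compared with isografts to see how the family stood in hearts that had been kept for longer. None of the 8 members was called by limma. At an unadjusted p under 0.05 there were 4, against 3.20% of all probe sets called and 15.4% at the unadjusted threshold. The median log2 difference was 0.8 over the 8 members and -0.09 over all probe sets.

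Mmp12 had 222.7, 235.8 and 621.0 units in tolerizing hearts at day 70, against 113.8 and 87.2 units in isografts (log2 difference 1.68, SE 0.76, adjusted p = 0.3049). Its other probe set had 61.5, 141.5 and 246.5 units in tolerizing hearts and 19.2 and 24.8 units in isografts (log2 difference 2.56, SE 0.86, adjusted p = 0.1441). Neither probe set overlapped between the groups. Mmp14 had 442.8, 355.8 and 397.2 units in tolerizing hearts, against 228.7 and 219.5 units in isografts (log2 difference 0.83, SE 0.28, adjusted p = 0.1548). Both groups were tight and apart.

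Mmp13 had 28.4, 42.4 and 18.9 units in tolerizing hearts at day 70, against 15.6 and 15.3 units in isografts, all higher but with an adjusted p of 0.5073. Mmp2 was lower in all tolerizing hearts, with 10, 17.2 and 15.2 units in tolerizing hearts, against 30.2 and 21.0 units in isografts (log2 difference -0.82, SE 0.36, adjusted p = 0.2888). Groups therefore did not overlap for 4 of 8 members (3 higher, 1 lower) and for 33.0% of all probe sets.

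Mmp3 spread widely, at 269.7, 102.8 and 44.6 units in tolerizing hearts at day 70, against 17.2 and 53.8 units in isografts (log2 difference 1.82, SE 0.7, adjusted p = 0.2138). It passed the threshold only with the beta-actin covariate, where its log2 difference was 2.51 (adjusted p = 0.03666). The beta-actin ratio was 1.24 to 1.69 in tolerizing hearts at day 70 and 1.75 to 1.76 in isografts. Timp1 was 1849.9, 399.3 and 461.0 units in tolerizing hearts and 116.0 and 1421.7 units in isografts, which overlapped. Within the first accession run its log2 difference was -1.62 and within the second 2.89, so the direction of Timp1 at day 70 followed single arrays. Timp2 and Timp3 had log2 differences of -0.06 and -0.39, with overlapping groups. A dimmer Timp2 probe set had 18.3, 12.9 and 11.5 units in tolerizing hearts, just above the floor, against 6.2 and 5.4 units in isografts, both under it (adjusted p = 0.4413). The summed macrophage markers were 6368.2 to 9246.6 units in tolerizing hearts at day 70 and 1469.0 to 3293.5 units in isografts. Their part in the values of Mmp12 was not tested.

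Between days, tolerizing allografts at day 70 were set against those at day 7, with no member called by limma, 1 at an unadjusted p under 0.05, and 0.0385% of all probe sets called (6.2% at the unadjusted threshold). Mmp14 was lower at day 70, with 442.8, 355.8 and 397.2 units at day 70, against 662.8, 563.7 and 590.3 units at day 7 (log2 difference -0.61, SE 0.25, adjusted p = 0.761). The brighter probe set of Mmp12 was higher in every heart of day 70, with 222.7, 235.8 and 621.0 units at day 70, against 157.0, 110.7 and 150 units at day 7 (log2 difference 1.21, SE 0.68, adjusted p = 0.9066). So was the dimmer one, with 61.5, 141.5 and 246.5 units at day 70, against 36.4, 20.9 and 43.8 units at day 7 (log2 difference 2, SE 0.77, adjusted p = 0.6922). Groups did not overlap for these 2 of 8 members and for 12.6% of all probe sets.

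Isografts at day 70 were likewise set against isografts at day 7, with no member called by limma, 1 at an unadjusted p under 0.05, and 0% of all probe sets called (5.38% at the unadjusted threshold). That member was Mmp14, with 228.7 and 219.5 units at day 70, against 566.7, 408.2 and 800.4 units at day 7 (log2 difference -1.35, SE 0.28, 95% interval -1.96 to -0.74, unadjusted p = 0.0003382, adjusted p = 0.3939). Mmp13 and Timp2 were also lower in both hearts of day 70, which makes 3 of 8 members whose groups did not overlap, all lower, against 19.8% of all probe sets. The difference of the tolerizing to isograft effect between the days called 0% of all probe sets (3.93% at the unadjusted threshold). By their brightest probe sets, none of the 8 members was called there or had an unadjusted p under 0.05, all with an adjusted p of 1. The dimmer Mmp12 probe set had 2.79 on the log2 scale (SE 1.16, unadjusted p = 0.03068, adjusted p = 1). For Mmp14 that difference was 0.74 on the log2 scale (SE 0.38).

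The ordering of group means differed between members. Mmp13 and Timp1 had their highest mean in rejecting hearts, at 108.17 ± 66.79 and 2764.13 ± 1574.91 units (SD, n = 3). Mmp3 and the brighter probe set of Mmp12 had theirs in tolerizing hearts at day 70, at 139.03 ± 116.84 and 359.83 ± 226.27 units. The dimmer Mmp12 probe set was highest in rejecting hearts, at 177.83 ± 136.54 units, against 149.83 ± 92.78 units in tolerizing hearts at day 70. Timp2 was highest in isografts at day 7, at 92.67 ± 14.1 units, and Mmp14 in tolerizing hearts at day 7, at 605.6 ± 51.29 units. For Mmp14 the next group, isografts at day 7 with 591.77 ± 197.3 units, lay within its spread. For the brighter probe set of Mmp12 the next group, rejecting hearts with 297.13 ± 214.44 units, did so too. The same held for Mmp3, with isografts at day 7 next (69.63 ± 48.9 units). It also held for Timp1, with tolerizing hearts at day 7 next (1659.83 ± 389.3 units).

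Across the 14 arrays, which share groups, scale and cell makeup, the highest correlation of log2 signal between 2 members was 0.59, between Timp1 and Mmp13, and the lowest -0.59, between Timp1 and Mmp2. The genes most like Mmp13 over the 14 arrays were Kalrn (Pearson r = 0.938), Angptl4 (0.916) and Grina (0.915). Those most like Timp2 were Matn2 (0.907), Ndn (0.898) and Fkbp9 (0.894). These are descriptions of 14 arrays and carry no test.

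Genes that act on the same system were counted in 6 lists. The lists were chosen with earlier results of these data known, so a count above a share is a description and no test. Their counts stand against the shares of all probe sets called, which were 8.54% higher and 9.18% lower in rejecting hearts against isografts, 1.41% in either direction against tolerizing hearts and 3.20% at day 70. Proteases of the plasminogen system open metalloproteinase precursors through plasmin. Of 9 tested members of that list, 4 rose and none fell in rejecting hearts against isografts. Plaur, the urokinase receptor, had 150.9, 153.9 and 145.2 units in rejecting hearts, against 10.2, 9.0 and 5.1 units in isografts, at least 13.63-fold higher because every isograft was under the floor (adjusted p = 0.0001158). Its rejecting hearts were alike, and rejecting array 3 did not stand apart. Serpinb2, which inhibits plasminogen activators, had 508.9, 160.5 and 63.2 units in rejecting hearts, against 3.4, 20.4 and 5.3 units in isografts (log2 difference 3.68, adjusted p = 0.0008367). The plasminogen-binding pair S100a10 and Anxa2 rose by 1.88 and 1.71 on the log2 scale. The same list had 3 genes higher in rejecting than in tolerizing hearts, namely Plaur (3.14), Serpinb2 (3.58) and S100a10 (1.3). S100a10 lost that call without any 1 of 5 of the 6 arrays compared, rejecting array 3 being the exception (adjusted p = 0.0505 to 0.116), and with the beta-actin covariate (0.1044). All 3 lost it when the groups were fitted alone (adjusted p = 0.1256 to 0.1892). At day 70, S100a10 alone of the 9 rose in tolerizing hearts against isografts, by 1.18 (adjusted p = 0.03946), and it lost the call in 4 of the 5 fits without 1 array and with the groups fitted alone (0.0508 to 0.4566).

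Of 10 other metalloproteinases tested, 2 rose in rejecting hearts against isografts and none fell, near the 17.7% of all probe sets called in either direction. Adam8, a membrane protease of leukocytes, had 779.7, 802.9 and 194.2 units in rejecting hearts, against 11.9, 9.5 and 28.2 units in isografts. The log2 difference was 5 (SE 0.67, adjusted p = 0.0004357), or 32.05-fold. Rejecting array 3 was the lowest of its group and still above every other array. Against tolerizing hearts, which had 12.3, 7.9 and 53.5 units, Adam8 was also higher (log2 difference 4.68, adjusted p = 0.00443), and the call was lost with the groups fitted alone (0.1471). Adam9 rose by 1.25 on the log2 scale (adjusted p = 0.01961) and lost the call without rejecting array 2 (0.05269), without isograft array 2 (0.09043) or with the beta-actin covariate (0.08613).

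Among 11 further inhibitors, clearance receptors and surface inducers, 3 rose and 2 fell in rejecting hearts against isografts. Cd44, a hyaluronan receptor that docks metalloproteinases, rose by 2.05 on the log2 scale (adjusted p = 0.00121). Tfpi2, a serine protease inhibitor, rose by 1.44 (0.01035). Thbs2, which clears Mmp2 through endocytosis, fell by 2.55 (0.00307), and Bsg, an inducer of metalloproteinases in neighbouring cells, fell by 1.12 (0.008058). A2m, a protease-trapping protein singled out after its values were seen, had 249.1, 147.1 and 4.3 units in rejecting hearts, against 9.3, 1.7 and 2.8 units in isografts. It was low on rejecting array 3, as Mmp9 was. It lost its call (adjusted p = 0.02799) without any 1 of the other 5 arrays compared and with the groups fitted alone (0.06959 to 0.1875).

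Of 18 cytokines, receptors and receptor antagonists tested, 5 rose and none fell in rejecting hearts against isografts. This list does not hold inducers of metalloproteinases alone. Il1b had 196.8, 243.3 and 449.5 units in rejecting hearts, against 20.1, 33.7 and 33.3 units in isografts (log2 difference 3.3, adjusted p = 0.001794). Il6 rose by 2.98, Il1rn, the antagonist of the interleukin 1 receptor, by 3.12 and Tnfrsf1b by 1.36. The fifth, Ifng, named after its values were seen, was at least 3.75-fold higher (adjusted p = 0.01117) and missed the threshold in the second accession run, with the beta-actin covariate and with the groups fitted alone (0.0603 to 0.1132). Il1b and Il6 were highest on rejecting array 3, the array on which Mmp9, Mmp12 and Mmp13 were lowest in the group. At day 70, Il1rn (2.5) and Tnfrsf1b (1.07) were the 2 of 18 that rose in tolerizing hearts against isografts, and both calls were lost without tolerizing array 1 (adjusted p = 0.08921 and 0.1485) or isograft array 2 (0.149 and 0.1502).

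Of 18 transcription factors that act on metalloproteinase promoters, 6 rose and 1 fell in rejecting hearts against isografts. Fosl1, an AP-1 subunit, had 59.3, 21.9 and 32.4 units in rejecting hearts, against 6.0, 5.0 and 9.3 units in isografts, at least 3.16-fold higher (adjusted p = 0.00273). Fos had 372.5, 404.4 and 573.1 units in rejecting hearts, against 24.9, 140.5 and 82.7 units in isografts (log2 difference 2.74, adjusted p = 0.007449). Fos lost its call in the second accession run alone (0.07668), as did Spi1 (log2 difference 1.15 with all arrays, 0.0708 in that run). Cebpb rose by 1.36. The gene that fell, named after its values were seen, was Ets2 (-0.79, adjusted p = 0.04618). Leaving out any 1 array other than rejecting array 3 ended that call (0.07593 to 0.1455). Against tolerizing hearts none of the 11 inhibitors and surface genes, 18 cytokines or 18 transcription factors was called. Without rejecting array 3, 3 of each list were higher. That array was chosen by its values, and the share of all probe sets called without it is not given. These counts are therefore not read as a result about the lists. Fos, like Il1b, was highest on rejecting array 3.

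Of 30 matrix substrates, 10 fell and 1 rose in rejecting hearts against isografts, with a median log2 difference of -0.65 over the list and 0.04 over all probe sets. Lum, a collagen-binding proteoglycan, had 133.8, 206.2 and 166.4 units in rejecting hearts, against 1153.5, 1018.5 and 1246.4 units in isografts. Lum fell by 2.77 on the log2 scale (adjusted p = 7.237e-06), and Eln, the elastin that Mmp12 cuts, by 3.53 (2.886e-05). Dcn fell by 2.26 and Lama2 by 2.72. With 1 array left out, 7 to 12 of the 30 were lower. The substrate that rose was Tnc, named after its values were seen, with 540.5, 430.0 and 90.0 units in rejecting hearts, against 36.0, 30.8 and 49.6 units in isografts (log2 difference 2.86, adjusted p = 0.02938). Its call was lost without any 1 array other than rejecting array 3 (0.05416 to 0.1184). Against tolerizing hearts 5 of the 30 substrates were lower and none higher, led by Lum (-2.68), Eln (-2.84), Postn (-3.61) and Dcn (-1.74). The fifth was Lama2 (-2.31), named after its values were seen, which lost the call without tolerizing array 2 (adjusted p = 0.05103). Of the 5, Lum and Eln kept the call with the groups fitted alone. Dcn, Lum and Postn also stand on the fibroblast marker list, of whose 12 genes 5 fell and 2 rose in rejecting hearts against isografts. The 2 that rose were S100a4 (2.43) and Thy1 (1.98), named after their values were seen, and other cell types express both. The part of this list in the falls was not tested.

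**Figure D4:**
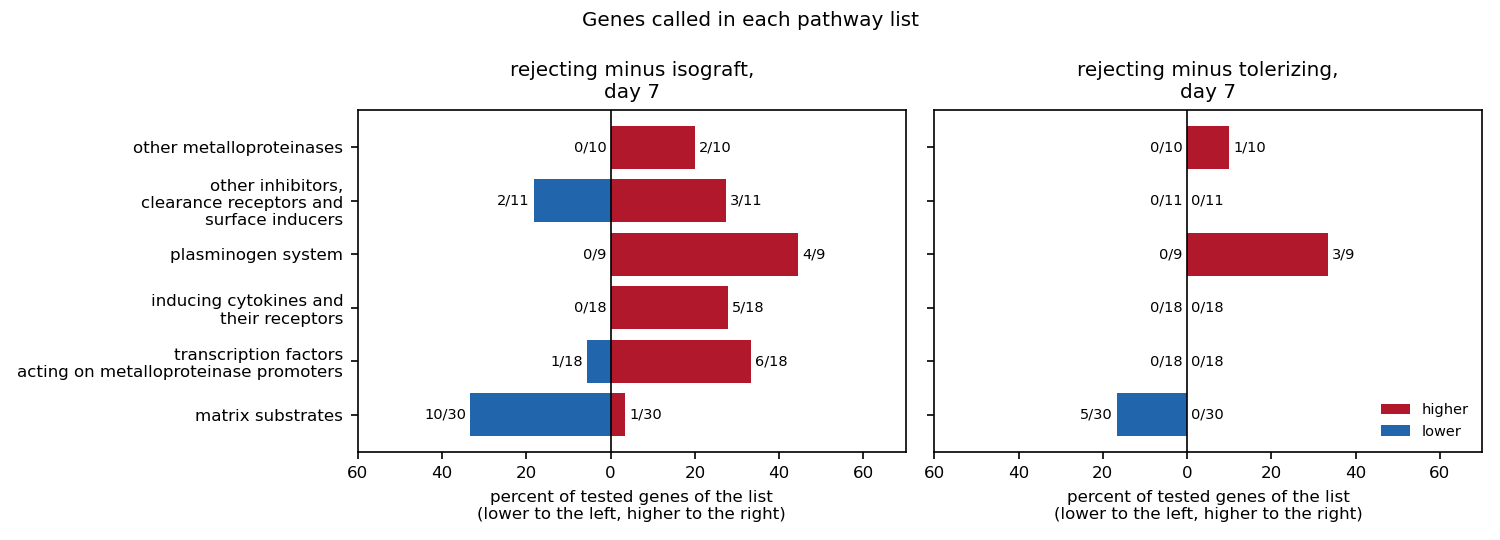
Percent of the tested genes of each list (horizontal axis) called higher (right) or lower (left) by limma at an adjusted p of 0.05, in rejecting hearts against isografts and against tolerizing hearts at day 7; labels give called over tested genes. The plasminogen list has 4 of 9 and 3 of 9 genes higher, and the matrix substrates have 10 of 30 and 5 of 30 lower.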

How the data were processed

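The deposited table holds a signal intensity for 12488 probe sets on 14 arrays, on a linear scale. The software and scaling behind the authors' intensity values were not given in the sources used here. Trimmed by 2% at each end, the mean was 100.06 to 100.07. The values were not scaled again. Of the probe sets, 66 controls were left out, and 10395 of the rest (83.7%) were tested. The platform annotation gave 1 gene for 10833 probe sets, several for 396 and none for 1193. Intensities were floored at 11, taken to log2 and fitted in limma 3.58.1 (R 4.3.3) with all 5 groups sharing 1 variance estimate and an intensity trend, at a Benjamini-Hochberg adjusted p under 0.05. The fit was checked on simulated data. Intensity over background limits precision, and so does the number of arrays. The brightest probe set stands for a gene. Members and gene lists were chosen with earlier results of these data known. Every member is named. In each list and comparison up to 4 called genes with the smallest p are named, and 3 genes most like each called member. Others are marked where they appear. Equal replicate numbers were checked for pairing through the correlation of deviations from group means. Only tolerizing hearts at day 70 and day 7 exceeded 0.1 in every pair (0.34, 0.25 and 0.27). Alternatives covered scaling, floor, filter, variance model, accession run, RNA quality, probe set, samples in the fit and single arrays. Figures used matplotlib.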

Additional observations from a re-analysis of the deposited data

Results flagged for a closer look

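Probe sets left out of the test because they were dim held signals above every isograft in a few allografts. Mmp9 reached 130.0 units on rejecting array 1, against a highest isograft signal of 9.0 units, at its brighter probe set, and 17.3 units, against 10 units, at its other one. In both cases 2 allograft arrays, the first 2 rejecting ones, exceeded the floor and every isograft. The dimmer Mmp2 probe set reached 20.4 units on tolerizing array 1 of day 70, against 6.1 units in isografts, with 2 such arrays. Mmp8 reached 12.3 units on rejecting array 2, against 8.0 units in isografts, and the untested Timp2 probe set reached 12.1 units on tolerizing array 2 of day 7, against 8.2 units, with 1 such array each. These last signals are close to the floor of 11 units.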

How the results depend on the processing

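Counts of called members were recomputed under 15 alternatives and with each array left out, 150 counts in all, of which 138 stayed within 1.5 times the first value and 12 did not. Only rejecting hearts against isografts had members called at first, so most of these counts started from 0. The rule also compared numbers and not which members were called. The 138 therefore do not measure how firm the calls of Mmp13 and Timp2 are. For rejecting hearts against isografts (2 called), the count was 4 with array weights, adding Mmp12 and Timp1, and 1 with the second accession run alone and with the beta-actin covariate (Mmp13 in both). With the groups fitted alone it was 1, namely Timp1 (adjusted p = 0.03626), while Mmp13 and Timp2 lost their calls. It was 0 to 2 with 1 array left out. For rejecting against tolerizing hearts (0 called), it was 2 with array weights (Mmp13 and Mmp3), 1 with the second accession run alone and 0 to 1 with 1 array left out. For tolerizing hearts against isografts at day 70 (0 called), it was 1 with the beta-actin covariate, namely Mmp3. The cause was not tested. With a replicate block the fit called 2 members in rejecting hearts against isografts and 0 elsewhere. Between tolerizing hearts at day 70 and day 7, the replicate block called 12 probe sets in all, against 4. Deviations correlated there in every pair of equal numbers, but the labels do not say that equal numbers pair these hearts. With a replicate block no other call of a member changed. Over the 6 fits with 1 array left out the log2 difference of Mmp13 was 1.55 to 2.69, with 3 calls kept, and that of Timp2 -1.17 to -0.63, with 2 kept. Over the other 14 alternatives they were 1.22 to 2.81 (13 kept) and -0.97 to -0.52 (11 kept). Signals of Mmp8 and Mmp9 lie at or under the floor on most arrays and those of Mmp2 near it, so for them a difference is limited by the intensity over background.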
